A study of Mus musculus with 12 samples.

Results

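The proteasome is the protease that degrades proteins tagged with ubiquitin. The table of counts held 50 gene symbols of the form Psma to Psmg followed by a number, pseudogene symbols left out, among 55291 symbols in all. By role they were 8 alpha and 8 beta genes of the core particle, 3 immunoproteasome genes, 17 genes of the 19S regulator, 5 genes of the PA28 and PA200 regulators, Psmf1, 7 assembly genes, and Psmc3ip. Psmc3ip shares the symbol pattern but encodes a recombination factor known from meiosis and not a proteasome component, so it is given apart.

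The RNA came from CD8+ T cells of mouse lymph node and spleen, measured in 12 libraries, 3 in each of 4 groups. Cells of Dock8 KO mice spent 24 h in bovine collagen gel at 2 mg/mL (KO gel) or in media (KO media), and cells of WT mice spent the same time in gel (WT gel) or in media (WT media), all after 3 days of activation. Dock8 encodes an activator of the small GTPase Cdc42. The labels give 3 mice per group and neither the kind of deletion nor whether gel and media cultures shared mice. If they did not come from separate mice, p-values measure only the spread between these libraries. In bulk RNA, fewer cells of a type and less RNA per cell cannot be told apart.

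Total counts ran from 28483064 to 61390702 per library. Dock8 stood at 109 to 168 CPM (counts scaled to a common library total by TMM factors) in the 6 KO libraries, against 362 to 450 CPM in the 6 WT libraries. The 5 markers of CD8 T cells summed to 2043 to 2516 CPM and the CD4 T cell markers to 3.18 to 8.60 CPM. The macrophage and dendritic cell markers summed to 20.5 to 49.1 CPM. Most was Itgax, at 36.5 CPM in KO gel, 38.1 in KO media, 22.7 in WT gel and 22.3 in WT media. Neutrophil markers summed to 0.175 CPM or below. The 4 B cell markers summed to 0.950 to 1.07 CPM in KO gel, against 0.534 to 0.831 CPM elsewhere. The erythroid markers summed to 0.581 to 1.15 CPM in KO gel, against 0.0427 to 0.293 CPM elsewhere. The KO gel libraries stood apart in the number of symbols detected: 28362 to 30104 symbols had a count at a common depth, against 24336 to 25142 in the other 9 libraries. The 3 platelet markers summed to 11.0 to 24.2 CPM in KO gel, against 3.07 to 7.36 CPM elsewhere. The mitochondrial share was 2.27 to 2.61% of counts in KO gel, against 1.34 to 2.31% elsewhere, where KO media replicate 2 overlapped with KO gel. WT gel replicate 2 and KO media replicate 3 were rich in loci that resemble ribosomal RNA, which took 19.1% and 12.6% of their counts.

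The catalytic core of the proteasome is a barrel of alpha and beta rings, and 3 of its beta subunits, encoded by Psmb5, Psmb6 and Psmb7, cut proteins. In lymphocytes and in cells exposed to interferon gamma these are replaced by the products of Psmb8, Psmb9 and Psmb10, which make the immunoproteasome, an enzyme known for producing peptides that MHC class I molecules present. The 19S regulator recognises, unfolds and feeds ubiquitinated proteins into the barrel, and PA28 and PA200 are alternative caps. Assembly chaperones build the rings and the base of the 19S regulator and then leave.

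Promoter windows from RefSeq (GRCm38.p6, 250 bases before to 50 after the annotated start) were found for 42 of the 50 symbols. They are shown for 4 genes that the results turn on and whose windows hold a match, with capitals on the motif named after each. For Psmd14, a 19S subunit that fell in KO gel, the window is chr2:61711444-61711743 on the plus strand and the capitals mark CCAAT boxes (3 matches, of which the last ones overlap). For Psmb9, an immunoproteasome gene that fell in KO gel, it is chr17:34187281-34187580 on the minus strand, with a CCAAT box. For Psmb8, the most highly expressed immunoproteasome gene, it is chr17:34197945-34198244 on the plus strand, with a gamma-interferon activation site. For Psme1, which encodes a PA28 subunit, it is chr14:55578244-55578543 on the plus strand, with an interferon-stimulated response element.
Psmd14: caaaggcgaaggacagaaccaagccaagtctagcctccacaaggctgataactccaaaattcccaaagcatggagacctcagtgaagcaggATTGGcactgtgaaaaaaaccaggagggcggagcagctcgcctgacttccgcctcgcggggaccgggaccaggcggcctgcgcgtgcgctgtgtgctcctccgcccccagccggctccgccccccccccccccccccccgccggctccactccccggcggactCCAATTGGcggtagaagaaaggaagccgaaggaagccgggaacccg
Psmb9: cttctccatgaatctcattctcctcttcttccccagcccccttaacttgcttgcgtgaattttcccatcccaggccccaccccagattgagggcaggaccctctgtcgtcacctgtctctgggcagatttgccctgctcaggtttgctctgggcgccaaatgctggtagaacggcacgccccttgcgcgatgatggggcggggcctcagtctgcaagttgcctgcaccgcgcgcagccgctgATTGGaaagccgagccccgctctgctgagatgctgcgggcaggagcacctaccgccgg
Psmb8: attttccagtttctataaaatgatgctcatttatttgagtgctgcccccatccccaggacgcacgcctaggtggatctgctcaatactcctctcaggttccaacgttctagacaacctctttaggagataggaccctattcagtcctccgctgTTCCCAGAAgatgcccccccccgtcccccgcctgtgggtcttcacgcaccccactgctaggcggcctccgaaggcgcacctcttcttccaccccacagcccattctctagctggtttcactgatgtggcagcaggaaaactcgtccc
Psme1: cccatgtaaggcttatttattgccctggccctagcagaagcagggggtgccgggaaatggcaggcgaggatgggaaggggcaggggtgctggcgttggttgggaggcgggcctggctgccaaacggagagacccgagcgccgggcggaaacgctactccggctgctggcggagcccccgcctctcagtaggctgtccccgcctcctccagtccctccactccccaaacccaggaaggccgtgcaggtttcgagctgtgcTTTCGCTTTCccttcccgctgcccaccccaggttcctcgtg
The motifs were searched on both strands as CCAAT, TTCNNNGAA for the gamma-interferon activation site, GAAA, any pair of bases and GAAA for the interferon-stimulated response element and TGACNNNGC for the antioxidant response element, the site of NRF1, an activator of proteasome genes. Among the 45 windows of proteasome symbols, CCAAT occurred in 33.3%, against 37.4% of all 32851 windows. The antioxidant response element occurred in 13.3%, against 12.4%. The gamma-interferon activation site occurred in 6.67%, against 8.3%. The interferon-stimulated response element occurred in 5 windows (11.1%), against 3.44% of all, namely those of Psmd4, Psmd9, Psmb3, Psmg4 and Psme1. The windows of Psmd13 and Psmd8, which also fell in KO gel, and of Psmb10 matched none of these motifs. All matches are of letters and do not show that a factor binds.

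Levels are compared between genes as CPM per kb of mRNA, averaged over the 12 libraries. Psmb8 stood at 198 and Psme1 at 158, the highest values of the 50 symbols. With lengths taken over all annotated exons instead, Psme2b stood first and Psmb8 and Psme1 followed, so both remained among the first 3. The 19S ATPase genes Psmc1 to Psmc6, which form the unfolding ring, lay within a narrow span of 37.7 (Psmc6) to 75.7 (Psmc3). The other 19S subunit genes ran from 25.9 (Psmd7, a lid subunit) to 106 (Psmd8, also a lid subunit). Core alpha genes ran from 20.4 (Psma3) to 109.8 (Psma7), and constitutive core beta genes from 41.2 (Psmb2) to 98.6 (Psmb4). The 7 assembly genes were lower, from 7.87 (Psmg3) to 17.7 (Psmg2), and Psmf1, which encodes the regulator PI31, stood at 8.80. All 7 assembly genes and Psmf1 lay below every 19S and constitutive core gene that was tested, except that Psmg4 passed Psmd1 when lengths were taken over all exons. Psmb11, the subunit of the thymoproteasome, had 0 to 5 counts per library, and Psma8, a testis-specific alpha subunit, had 0 to 7 counts. These were the 2 symbols with too few counts to test.

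**Figure D1:**
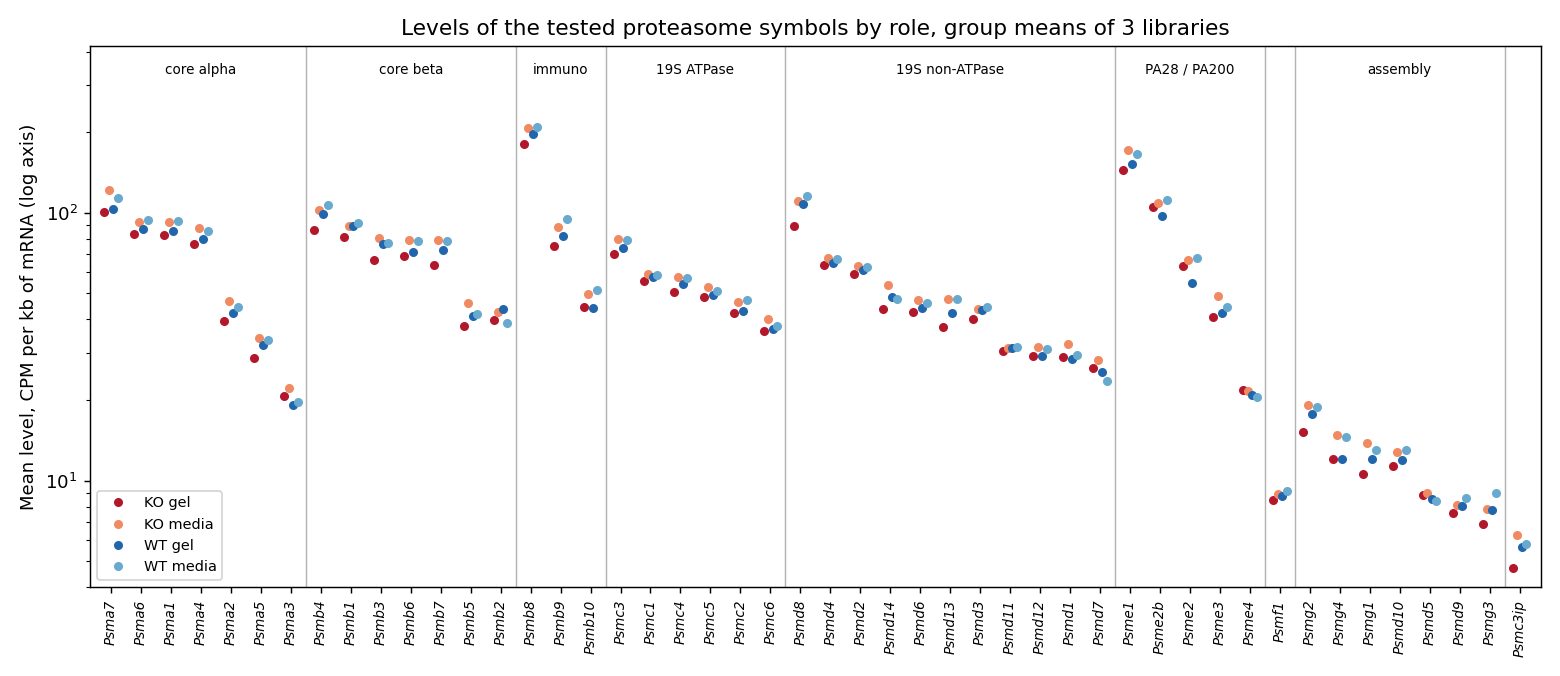
Mean level of each of the 48 tested proteasome symbols, in CPM per kb of mRNA on a log axis, with 1 point per group (KO gel, KO media, WT gel, WT media; n = 3 libraries each) and genes ordered by role. Psmb8 and Psme1 stand highest, and the assembly genes and Psmf1 stand lowest among proteasome genes.

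The immunoproteasome genes were abundant in all 4 groups. Per kb of mRNA, Psmb8 over Psmb5, which carries the chymotrypsin-like site, was 4.08 to 5.57 over the 12 libraries. Psmb9 over Psmb6, the caspase-like site, was 1.05 to 1.35, and Psmb10 over Psmb7, the trypsin-like site, was 0.583 to 0.746. These ratios do not depend on the scaling of libraries, but their absolute size depends on the annotated lengths. The difference in log2 ratio, gel minus media in KO less the same in WT, was 0.14 for Psmb8 over Psmb5. It was 0.06 for Psmb9 over Psmb6 and 0.25 for Psmb10 over Psmb7. These are given as a description with no test result.

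Psmb9 fell in KO gel relative to KO media, while Psmb8 and Psmb10 did not pass the test. Psmb9 stood at 99.4, 105 and 100.2 CPM in KO gel, against 121, 122 and 116 CPM in KO media. All 3 KO gel libraries lay below all 3 KO media libraries, with a log2 fold change of -0.24 (SE 0.07, adjusted p = 0.0205 by edgeR's quasi-likelihood F test, with Benjamini-Hochberg adjustment over 19010 genes, the test behind every adjusted p per gene below). In WT cells Psmb9 stood at 119, 109 and 103 CPM in gel, against 133, 122 and 129 CPM in media. The WT gel libraries also lay below the WT media libraries, with a log2 fold change of -0.21 (SE 0.07, adjusted p = 0.661). Psmb9 shares 212 bases of exon with Tap1 on the opposite strand, and the strand setting of the count is not given in the sources used here.

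Psmb8 stood at 283, 303 and 298 CPM in KO gel, against 351, 335 and 327 CPM in KO media (log2 fold change -0.20, SE 0.09, adjusted p = 0.118). In WT cells its libraries overlapped, with 359.8, 301 and 298 CPM in gel, against 378, 319 and 321 CPM in media. Psmb10 stood at 57.9, 59.7 and 57.1 CPM in KO gel, against 67.5, 66.4 and 62.6 CPM in KO media (-0.17, SE 0.07, adjusted p = 0.0874). Its WT gel libraries, at 62.0, 55.6 and 56.0 CPM, lay below the WT media libraries at 73.5, 64.7 and 65.0 CPM (-0.23, SE 0.07, adjusted p = 0.655). Psmb8 shares 498 exon bases with Gm20496 on the opposite strand. All 3 immunoproteasome genes were without overlap between gel and media in KO cells, where 23.9% of all genes and 37.2% of better expressed genes were lower without overlap. Psmb9 and Psmb10 were so also in WT cells, where the share of all genes was 4.53%.

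Among the subunits they replace, Psmb7 fell in KO gel. Psmb7 stood at 68.6, 76.9 and 76.7 CPM in KO gel, against 90.2, 94.2 and 90.6 CPM in KO media (-0.31, SE 0.09, adjusted p = 0.0344). In WT cells it stood at 94.2, 83.2 and 74.4 CPM in gel, against 103, 88.4 and 81.0 CPM in media, and the groups overlapped. Psmb7 shares 405 exon bases with Nek6 on the opposite strand. Psmb5, of whose 50-base exon windows 54.1% occur at other loci, stood at 33.0, 35.5 and 33.4 CPM in KO gel, against 41.2, 45.4 and 37.9 CPM in KO media (-0.29, SE 0.13, adjusted p = 0.132). It stood at 44.8, 34.6 and 31.5 CPM in WT gel, against 45.4, 36.2 and 31.9 CPM in WT media. For Psmb5 replicate 1 was far above the others in both WT cultures, and gel and media hardly differed. Psmb6 stood at 49.6, 58.3 and 56.6 CPM in KO gel, against 63.2, 63.9 and 62.7 CPM in KO media (-0.21, SE 0.10, adjusted p = 0.131). Its WT libraries overlapped, at 63.0, 54.8 and 53.2 CPM in gel, against 72.2, 58.9 and 56.3 CPM in media.

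**Figure D2:**
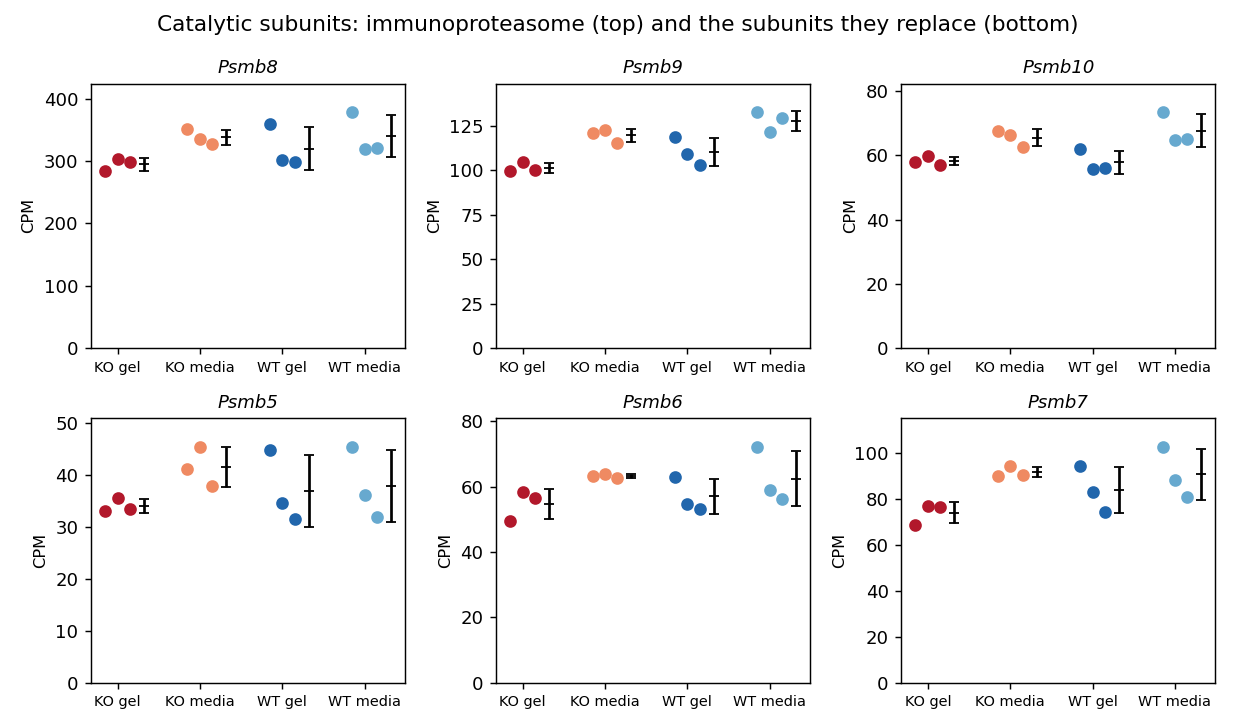
Level in CPM of the 6 genes for catalytic subunits, with 1 point per library, replicates 1 to 3 from left to right, and the mean ± SD of each group (n = 3) beside them. For each of the 6 genes the KO gel libraries lie below the KO media libraries; WT libraries overlap for Psmb8, Psmb5, Psmb6 and Psmb7.

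Over the whole set, 10 of the 48 tested symbols fell in KO gel relative to KO media and 0 rose. The members called lower were 20.8%, against 9.74% of all 19010 genes tested and 16.8% of the 9959 better expressed genes, those whose mean log2 CPM was 3 or higher, as it was for 45 of the 48. Among those 45, 8 were called lower (17.8%), close to the 16.8% of the better expressed genes. The background in the other direction was 11.1% of all genes and 6.42% of the better expressed ones. An unadjusted p under 0.05 was reached by 24 symbols, all lower (50%), against 17.9% of all genes and 29.2% of the better expressed ones (18.8% and 11.5% in the higher direction). The log2 fold change was negative for 47 of the 48, Psme4 being the exception at 0.02. The median was -0.17 over the proteasome symbols, against -0.01 over all genes tested and -0.08 over the better expressed genes. For 33 of the 48, all 3 KO gel libraries lay below all 3 KO media libraries (68.8%), against 23.9% of all genes and 37.2% of the better expressed genes; no symbol was apart in the higher direction, against 23.5% and 15.7%. With libraries scaled by total counts 20 of 48 were lower without overlap (41.7%), against 16.5% and 25.4%, and 1 symbol was apart in the higher direction. With TMM factors from the better expressed genes alone 24 of 48 were lower (50%), against 16.2% and 25.2%, and 1 was higher. The symbols moved together between libraries (median pairwise Pearson r 0.71 across the 12 libraries, a description without a test), so their number is not a number of independent observations.

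The count of called genes depended on the libraries and the scaling. Psmd13 was called in 21 of 21 alternative analyses and Psmd14 in 20 of 21. Psmd8, Psmb9 and Psmg2 were called in 15 of 21 each, and Psmc3ip in 15 of 20. Psma2 was called in 12 of 21, Psmb7 and Psme1 in 11 of 21 each, and Psmg4 in 8 of 20. The adjusted p by these tests reached 0.143 for Psmg4 and 0.155 for Psme1, the highest of the 10. No alternative turned the direction of any of these 10. The count of called symbols was 2 without KO gel replicate 1, 2 without KO gel replicate 3 and 4 without KO media replicate 1. It was 3 without KO media replicate 2, 6 without WT gel replicate 2, 17 without WT gel replicate 3 and 19 without WT media replicate 1. It was 1 with scaling by total counts and 3 without both libraries rich in ribosomal RNA, and all of these calls were in the lower direction. How the share of all genes called moved under the same settings is not given. The KO gel libraries also differed in the number of symbols with a count and in the B cell, erythroid and platelet markers given above. Their mitochondrial share was high with 1 overlap. The part of these differences in the result was not tested.

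Of the 14 tested core genes outside the immunoproteasome, 2 fell in KO gel, 0 rose and 12 did not pass, and all 14 log2 fold changes were negative, from -0.31 (Psmb7) to -0.09 (Psma3). The 14.3% called was between the 9.74% of all genes and the 16.8% of better expressed genes called lower. Psma2, an alpha ring subunit, stood at 111, 117 and 116 CPM in KO gel, against 139.5, 137 and 132 CPM in KO media, without overlap (-0.25, SE 0.08, adjusted p = 0.0313). In WT cells Psma2 overlapped, at 134, 118 and 116 CPM in gel, against 143, 122 and 123 CPM in media. Of the 50-base windows in Psma5 exons, 50% occur at other loci, and its pseudogene symbol Psma5-ps had 13.2, 14.3 and 14.6 CPM in KO gel, against 18.1, 17.5 and 17.3 CPM in KO media, so reads could move between these symbols. Psma5 itself did not pass (-0.25, SE 0.09, adjusted p = 0.0551).

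The 19S regulator held the smallest p-values. Of its 17 genes, 3 fell in KO gel, 0 rose and 14 did not pass, and all 17 log2 fold changes were negative. The 17.6% called was close to the 16.8% of better expressed genes called lower. The 3 encode lid subunits. The 6 ATPase genes did not pass (-0.19 for Psmc3 to -0.08 for Psmc1, smallest adjusted p = 0.0888). Their median of -0.14 was not weaker than the -0.12 of the 11 other 19S genes. Of the 6, 5 were lower without overlap (83.3%), against 6 of the 11 (54.5%). The background was 23.9% of all genes and 37.2% of the better expressed genes. Psmd14, the deubiquitinase that removes ubiquitin chains from substrates, stood at 65.6, 66.9 and 69.9 CPM in KO gel, against 78.9, 91.6 and 78.2 CPM in KO media (-0.30, SE 0.07, adjusted p = 0.00861). Its WT libraries overlapped, at 75.7, 77.4 and 71.0 CPM in gel, against 71.5, 75.4 and 73.1 CPM in media. So KO gel lay below each of the other 9 libraries and KO media above each of the others. Psmd13 stood at 70.9, 76.7 and 76.3 CPM in KO gel, against 94.8, 97.9 and 91.7 CPM in KO media (-0.34, SE 0.08, adjusted p = 0.00947). In WT cells Psmd13 stood at 93.1, 80.4 and 79.1 CPM in gel, against 105, 91.0 and 87.2 CPM in media, with overlap. Psmd13 shares 342 bases of exon with Sirt3 on the opposite strand. Psmd8 stood at 132, 145 and 137 CPM in KO gel, against 182, 173 and 158 CPM in KO media (-0.31, SE 0.09, adjusted p = 0.023).

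Of the 7 assembly genes, Psmg2 and Psmg4 fell in KO gel and 5 did not pass, with all 7 log2 fold changes negative. The 28.6% called stands on 2 genes, beside 9.74% of all genes. Psmg2, whose product chaperones the alpha ring together with that of Psmg1, stood at 15.5, 16.9 and 15.8 CPM in KO gel, against 18.9, 22.1 and 20.1 CPM in KO media (-0.34, SE 0.10, adjusted p = 0.022). Its partner Psmg1 had a log2 fold change of -0.38 (SE 0.13, adjusted p = 0.0572), also without overlap. Psmg4, which acts with Psmg3 on the alpha ring, stood at 6.23, 6.97 and 6.83 CPM in KO gel, against 8.56, 8.17 and 7.90 CPM in KO media (-0.30, SE 0.10, adjusted p = 0.0465). In WT cells Psmg4 stood at 6.84, 6.77 and 6.50 CPM in gel, against 8.95, 7.66 and 7.58 CPM in media, without overlap but with adjusted p = 0.872. The chaperones of the 19S base, Psmd5, Psmd9 and Psmd10, had log2 fold changes of -0.02, -0.10 and -0.17 between KO gel and KO media. Psmc3ip, the symbol outside the proteasome, fell in KO gel, with 5.88, 6.34 and 6.06 CPM against 7.63, 8.61 and 8.03 CPM in KO media (-0.41, SE 0.11, adjusted p = 0.0182). It shares 385 exon bases with Mlx on the opposite strand. Without it, 9 of 47 symbols were called lower.

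**Figure D3:**
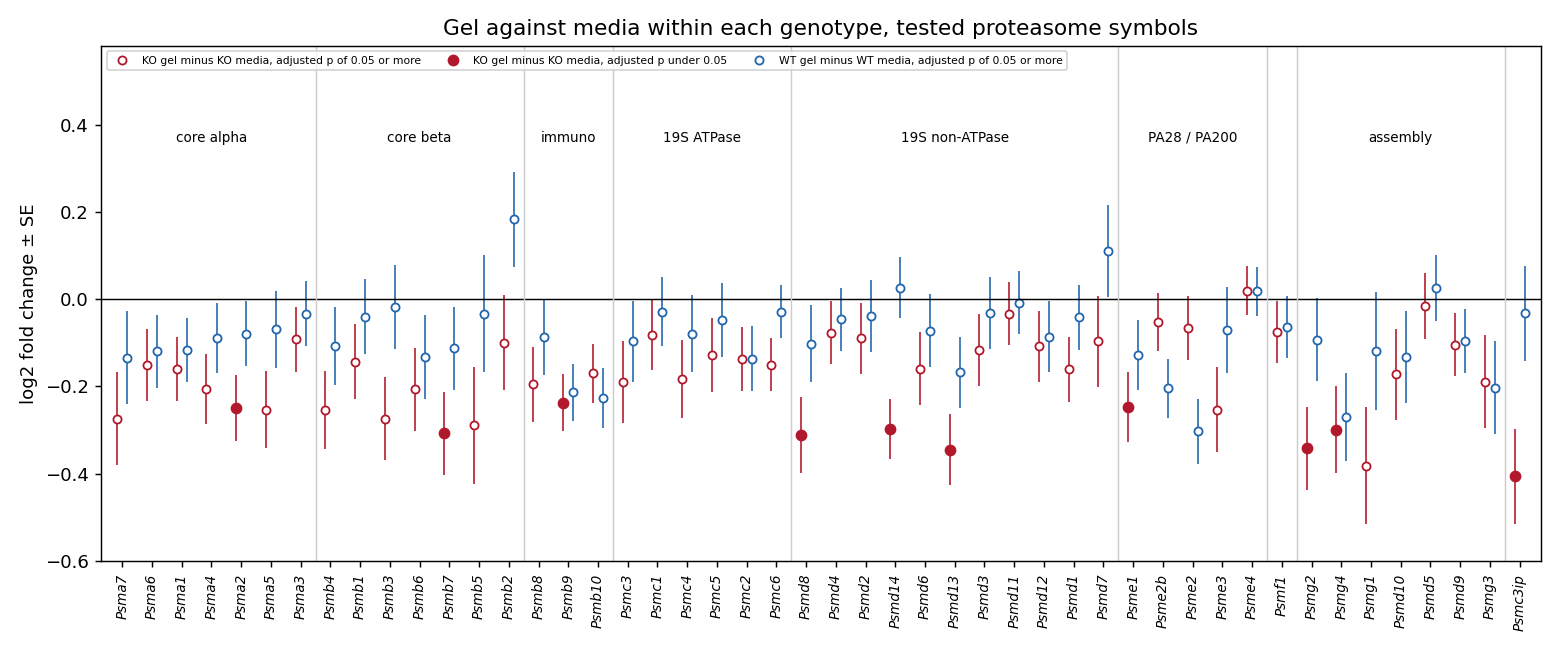
Log2 fold change of gel over media ± SE for the 48 tested proteasome symbols, within KO cells (red) and within WT cells (blue), ordered by role; filled points passed an adjusted p of 0.05. In KO cells 47 values lie below 0 and 10 are filled, and in WT cells 43 lie below 0 and none is filled.

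The 8 promoter windows found for the 10 called symbols were searched for the same motifs. CCAAT occurred in 4 of them (Psmd14, Psma2, Psmb9 and Psmc3ip), or 50%, against 37.4% of all windows. The interferon-stimulated response element occurred in 2 (Psmg4 and Psme1), or 25%, against 3.44%, while the other motifs had 0 matches. With 8 windows these shares are a description and not a result about the called symbols.

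In WT cells no proteasome symbol passed the test between gel and media, where edgeR called 0.00526% of all genes lower and 0.0316% higher. DESeq2 and limma-voom also called 0 of the 48, and the shares of all genes they called are not given. Of the 48, 5 had an unadjusted p under 0.05, all lower in gel: Psme2, Psmb10, Psmb9, Psme2b and Psmg4. Of all genes tested, 2.64% had such a p in the lower direction and 2.8% in the higher. For 7 of the 48 all WT gel libraries lay below all WT media libraries (14.6%), against 4.53% of all genes tested, and 0 were apart in the higher direction, against 4.65%. With scaling by total counts 12 of the 48 were lower without overlap (25%), against 9.92% of all genes. The median log2 fold change was -0.08, against -0.01 over all genes, and it was -0.00 without WT media replicate 1. The WT replicates spread widely: relative to each gene's mean over the 12 libraries, the median symbol stood at a log2 value of 0.09, -0.05 and -0.13 in WT gel, and at 0.21, -0.00 and -0.05 in WT media. The same medians were -0.18, -0.05 and -0.09 in KO gel, and 0.09, 0.10 and 0.06 in KO media. In WT cells replicate 1 stood highest in both cultures, so leaving out its media library alone kept a high gel library. At each replicate number the WT gel median lay below the WT media median. The labels do not say that equal numbers share a mouse.

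**Figure D4:**
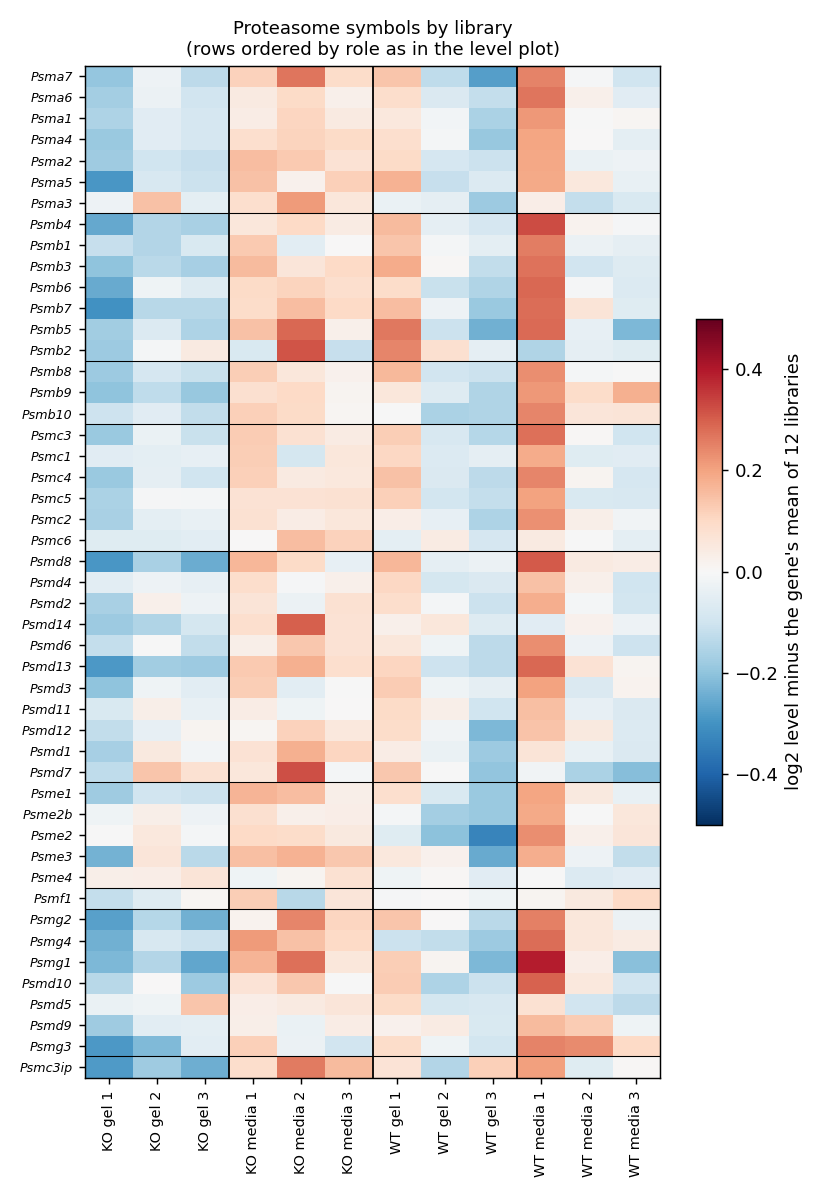
Log2 level of each of the 48 tested proteasome symbols in each of the 12 libraries, minus the mean of that gene over all libraries; rows follow role and lines separate groups and roles. KO gel replicate 1 and WT gel replicate 3 are low for 47 of 48 symbols each, and WT media replicate 1 is high for most.

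Between KO gel and WT gel no proteasome symbol passed edgeR's test, where 7.71% of all genes were called lower and 7.12% higher (13.3% and 4.03% of the better expressed genes). DESeq2 called Psmd8 lower and Psme2 higher, and limma-voom called 0. The shares of all genes called by DESeq2 and limma-voom are not given, so these counts have no background beside them. With an unadjusted p under 0.05 there were 4 symbols lower (Psmd8, Psmb4, Psmc3ip and Psmg2) and 1 higher (Psme2). Among all genes 15.2% were lower by that measure and 14.8% higher, and among the better expressed ones 24.8% and 9.32%. Psmd8 had the smallest p, with 132, 145 and 137 CPM in KO gel, against 182, 157 and 159 CPM in WT gel (-0.27, SE 0.09, adjusted p = 0.055). The groups did not overlap for 8 symbols in the lower direction, or 16.7% against 19.9% of all genes and 31.6% of the better expressed ones. They did not overlap for 2 in the higher direction, Psme2 and Psme4, against a background of 18.3% and 12.1%. The median was -0.07, with 40 of 48 values negative, but with scaling by total counts it was 0.04, with 17 negative, so these data give the set no direction between KO gel and WT gel.

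Between KO media and WT media no symbol passed, by edgeR, DESeq2 or limma-voom, where edgeR called 0.163% of all genes lower and 0.0263% higher. With an unadjusted p under 0.05 there were 3, all higher: Psmd14 (0.18, SE 0.07, adjusted p = 0.594), Psmd7 (0.26, SE 0.10, adjusted p = 0.608) and Psma3 (0.17, SE 0.07, adjusted p = 0.627). Among all genes 2.96% were higher by that measure and 4.53% lower. Psmd7 encodes the lid subunit that pairs with that of Psmd14. The groups did not overlap for 4 symbols, all higher in KO media (Psmd14, Psmd7, Psma3 and Psmd1), where 4.88% of all genes tested were apart in that direction and 5.83% in the lower one.

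The difference of the gel response between genotypes (the interaction of genotype and culture) passed for no proteasome symbol in edgeR, against 1.45% of all genes called in the lower direction and 1.89% in the higher. DESeq2 called Psmd14 and limma-voom called 0, and the shares of all genes called by these tools are not given. With an unadjusted p under 0.05 there were 3: Psmd14 (-0.32, SE 0.10, adjusted p = 0.0857), Psmc3ip (-0.37, SE 0.15, adjusted p = 0.197) and Psme2 (0.24, SE 0.11, adjusted p = 0.23). The calls in KO cells and their absence in WT cells therefore do not show that the genotypes responded differently to gel.

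PA28 is a ring of the products of Psme1 and Psme2, both known to be induced by interferon gamma. Psme1 fell in KO gel and Psme2 did not pass. Psme1 stood at 155, 164 and 163 CPM in KO gel, against 198, 195 and 179 CPM in KO media, without overlap (-0.25, SE 0.08, adjusted p = 0.0436). In WT cells it overlapped, at 186, 166 and 154 CPM in gel, against 201, 181 and 171 CPM in media (-0.13, SE 0.08, adjusted p = 0.994). Psme2 was without overlap in WT cells and not in KO cells. It stood at 60.3, 62.7 and 60.1 CPM in KO gel, against 64.7, 64.3 and 62.5 CPM in KO media, with overlap (log2 fold change -0.07, SE 0.07, adjusted p = 0.543). In WT cells it stood at 57.9, 52.5 and 48.0 CPM in gel, against 70.9, 61.4 and 62.9 CPM in media, without overlap (-0.30, SE 0.07, unadjusted p = 0.00114, adjusted p = 0.468).

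Psme2 (chr14:55587441-55591113, minus strand, GRCm38) has a near-identical copy, Psme2b (chr11:48945354-48946190, minus strand). Their coding sequences are 717 bases each with 5 mismatches (99.3% identity), so the split of reads between them is uncertain. The stretch of coding bases 484 to 543 is shown because it holds 3 of the 5, in capitals, read from GENCODE M21 transcripts.
Psme2: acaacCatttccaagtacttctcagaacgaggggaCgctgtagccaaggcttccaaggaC
Psme2b: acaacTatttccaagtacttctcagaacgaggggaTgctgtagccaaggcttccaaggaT
Psme2b stood at 87.2, 90.3 and 86.9 CPM in KO gel, against 93.7, 90.1 and 90.5 CPM in KO media, and at 87.9, 78.6 and 77.8 CPM in WT gel, against 101, 88.4 and 92.1 CPM in WT media. Its WT gel libraries lay below the WT media libraries and its KO libraries overlapped, as for Psme2. The sum of both averaged 149 ± 3.31 CPM in KO gel, 155 ± 2.79 CPM in KO media, 134 ± 10.3 CPM in WT gel and 159 ± 11.5 CPM in WT media (SD, n = 3 each). All 837 bases of Psme2b lie within Gm12185 on the same strand, outside its exons. Psme2b also shares 41 exon bases with 9930111J21Rik1 on the same strand. Whether reads of these genes entered its counts was not tested.

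The ratio of Psme1 counts to the counts of Psme2 and Psme2b together does not depend on library scaling. It was 1.05, 1.07 and 1.11 in KO gel, against 1.25, 1.26 and 1.17 in KO media. In WT cells it was 1.28, 1.27 and 1.23 in gel, against 1.17, 1.21 and 1.10 in media. KO gel thus lay below KO media and WT gel above WT media, in both cases without overlap. On the log2 scale gel minus media was -0.19 in KO and 0.11 in WT, a difference of -0.30. The ratio was chosen after its values were seen, so this is a description and no test is given. The interaction of neither Psme1 (-0.12, SE 0.11, adjusted p = 0.597) nor Psme2 passed edgeR's test.

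**Figure D5:**
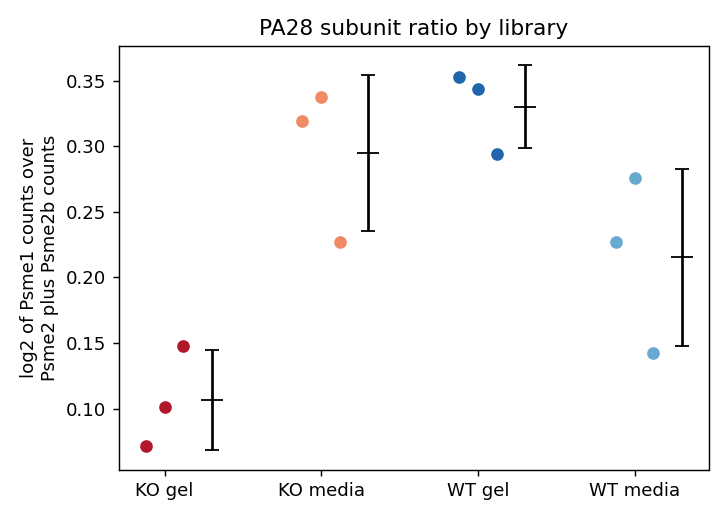
Log2 of Psme1 counts over the counts of Psme2 plus Psme2b in each library, with the mean ± SD of each group (n = 3). KO gel lies below KO media, and WT gel lies above WT media, without overlap in either pair.

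Psme3, which forms the nuclear PA28 gamma ring, stood at 99.2, 122 and 107 CPM in KO gel, against 129.9, 132 and 129 CPM in KO media, without overlap (-0.25, SE 0.10, adjusted p = 0.0793). In WT cells it overlapped, at 121, 119 and 98.2 CPM in gel, against 133, 115 and 107 CPM in media. Psme4, which encodes PA200, had 141, 141 and 144 CPM in KO gel, against 136, 139 and 145 CPM in KO media, and 136, 138 and 132 CPM in WT gel, against 138, 131 and 132 CPM in WT media. Its 12 libraries spanned the narrow range of 131 to 145 CPM. Psmf1 had a log2 fold change of -0.08 (SE 0.07) between KO gel and KO media.

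Genes around the proteasome were read from 4 lists. In the order given below, 0%, 6.25%, 14.3% and 10% of the listed genes were called lower between KO gel and KO media. The background was 9.74% of all genes and 16.8% of the better expressed ones. In the NRF1 list 14.3% were called higher, against 11.1% and 6.42%. Each share above 0 stands on 1 gene, so these calls are not a result about the lists. Of 8 further proteasome parts and assembly factors, 0 passed between KO gel and KO media by edgeR, with 1 at an unadjusted p under 0.05: Pomp, which matures the core particle, averaged 53.5 CPM in KO gel, against 60.8 CPM in KO media (-0.18, SE 0.07, adjusted p = 0.0757). Of 16 genes for ubiquitin, its activation and shuttling, Rps27a, a ubiquitin fusion gene, fell in KO gel, at 107 CPM against 132 CPM in KO media (-0.30, SE 0.09, adjusted p = 0.0302). Of 7 genes of the NRF1 route, Mafg, a partner of NRF1, rose in KO gel, at 29.9 CPM against 24.3 CPM in KO media (0.30, SE 0.07, adjusted p = 0.00801). In the same list Ngly1, whose product processes NRF1, fell, at 102 CPM against 118 CPM (-0.22, SE 0.06, adjusted p = 0.03). Of 10 regulators of the immunoproteasome and genes of peptide transport, Erap1, which trims peptides, fell in KO gel, at 145 CPM against 167 CPM in KO media (-0.21, SE 0.06, adjusted p = 0.0286).

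Between KO gel and WT gel, Mafg was also higher in KO gel (0.31, SE 0.07, adjusted p = 0.00891), at 28.7, 29.5 and 31.4 CPM, against 25.1, 24.9 and 22.5 CPM in WT gel, without overlap. In this comparison 7.12% of all genes and 4.03% of the better expressed ones were called higher.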

How the data were processed

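RNA of 12 libraries was measured by sequencing of total RNA after ribosomal RNA depletion, per the labels' protocols. The deposited values are raw read counts per gene symbol; the authors used HISAT2 and featureCounts with GRCm38, per the submitters' processing notes. The sources used here do not name tool versions, the annotation, the strand setting or the treatment of reads with several hits. Libraries were scaled by TMM factors, genes were kept by filterByExpr (19010 genes), and 4 group means were fitted to all 12 libraries with edgeR 4.0.16 (quasi-likelihood F test, Benjamini-Hochberg adjustment, threshold 0.05; R 4.3.3). SE is the log2 fold change divided by the root of F. Alternatives were DESeq2 1.42.0, limma-voom (limma 3.58.1), other scalings and filters, the compared groups alone, a replicate block and leaving out libraries. Lengths and overlaps came from GENCODE M21. The rule for named genes took the 6 catalytic genes, Psme1 to Psme4, per comparison the 3 called members with the smallest p in each direction and the called member with the largest change per role, and up to 4 genes per related list in order of p. The rest of the 10 called members, Psme2b, and members under an unadjusted p of 0.05 were named after their values were seen. The members and all lists were chosen with earlier results of these data known. Tested proteasome symbols had 163 or more counts in every library. Counts of groups without overlap under other scalings were added after seeing the data. A gene of the related list of immunoproteasome regulators is not reported here, so that list is described between KO gel and KO media alone.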

Additional observations from a re-analysis of the deposited data

Results flagged for a closer look

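The log2 ratio of Psme1 counts over those of Psme2 and Psme2b was singled out from 4 ratios by a permutation of culture labels within each genotype. The rule was a Benjamini-Hochberg adjusted p under 0.05. That permutation assumes no effect of culture in either genotype. Meeting the rule therefore does not test whether the genotypes responded differently, and it served only to pick the ratio. Gel and media libraries were ordered in opposite ways in the 2 genotypes. All 3 KO gel libraries were below all 3 KO media libraries, and all 3 WT gel libraries were above all 3 WT media libraries. Gel minus media was -0.19 in KO and 0.11 in WT, a difference of -0.30. Of 6 ratios computed, 4 entered this rule. The ratio was chosen after its values were seen, so its p is not reported as a test of the difference. With Psme2 alone as the denominator the difference was -0.35, and leaving out each library in turn it ran from -0.34 to -0.27. These alternatives were also chosen after seeing the data.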

How the results depend on the processing

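Between KO gel and KO media, 10 proteasome symbols were called, and the count was 1 with total counts, 21 with no filter on low counts, 2 with genes of mean log2 CPM of at least 3 alone, 23 with the compared groups alone and 3 without the 2 libraries rich in ribosomal RNA. Leaving out each library gave 2 to 19. All these calls were lower in KO gel. Between KO gel and WT gel, where 0 were called, the count was 1 with total counts (Psme2), 2 with DESeq2, 1 with no filter, 2 in the high genes, 1 with the compared groups alone, and 0 to 3 with a library left out. For the interaction, with 0 called, it was 1 with DESeq2 (Psmd14), 1 with no filter (Psmb11, at 0 to 5 counts) and 0 to 1 with a library left out. A replicate block gave 17 calls between KO gel and KO media and 2 between KO gel and WT gel. Gel and media libraries of the same number correlated at 0.06 to 0.17 in KO and 0.06 to 0.51 in WT. Those of different numbers correlated at -0.13 to 0.07 in KO and -0.46 to 0.07 in WT. The labels do not say that equal numbers share a mouse, so the main fit held no pairs. A shared origin of same-numbered libraries remains possible. The cause of the shifts in the counts of calls was not tested. The shares of all genes called under these settings are not given. The counts therefore cannot tell shifts of the proteasome symbols from shifts of all genes. Total counts moved the median of all genes by 0.12 for the interaction and 0.10 for KO gel against WT gel. Depth does not allow statements on Psmb11 and Psma8.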
